A study of Mus musculus with 8 samples.

Results

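The genes described here are 8 members of the neurotrophin and GDNF signalling families, read from whole cochleae by RNA seq. They are the ligands Ntf3, Bdnf and Gdnf, the Trk receptors Ntrk2 and Ntrk3, the low-affinity neurotrophin receptor Ngfr, the GDNF co-receptor Gfra1 and its signalling partner Ret. They were chosen by symbol from the 47628 entries that name a gene, and all 8 were present and passed the minimum of a mean normalized count over 10. The samples were 4 WT mice, numbered 4, 5, 6 and 8, and 4 heterozygous Opa1+/- mice, labelled Het_2, Het_7, Het_484 and Het_491, all aged 21 days and untreated. Opa1+/- mice carry, on 1 allele, a knock-in of the human delTTAG deletion in Opa1, the gene of a dynamin-like GTPase of the inner mitochondrial membrane. WT mice were their littermates, and both groups shared a mixed C57BL/6J and 129 Sv/Pas background. Homozygous mice die before birth, so that only heterozygous animals could be studied, and the study used males and females.

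Neurotrophins are secreted proteins that keep neurons and their terminals alive and shape their connections. BDNF acts mainly through TrkB, the product of Ntrk2, and neurotrophin-3, the product of Ntf3, acts mainly through TrkC, the product of Ntrk3. The p75 receptor encoded by Ngfr binds all neurotrophins and their precursors and is also found on Schwann cells. GDNF binds GFRα1 on the cell surface, and the complex activates the receptor tyrosine kinase RET. In the inner ear, spiral ganglion neurons carry TrkB and TrkC and receive neurotrophins from hair cells and supporting cells.

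Reads on named genes ranged from 15978051 to 20828030 counts per mouse. Levels are given as CPM, counts divided by library size, which was scaled by TMM factors between 0.956 and 1.06. Opa1, the check of the genotype labels, fell from 119.8 ± 6.56 CPM in WT cochleae to 65.5 ± 4.28 CPM in those of Opa1+/- mice (SD over 4 mice), a log2 change of -0.87 ± 0.0684 (SE) with an adjusted p of 0.00526 in edgeR's quasi-likelihood test. With each mouse left out its log2 change ran from -0.90 to -0.84, and its adjusted p rose past 0.05 without WT mouse 8 (0.0574) or without Het_2 (0.0588), and to 0.321 without both Het_484 and Het_491. The labelled tissue was checked by its markers. The summed level of 12 hair cell genes was between 171.4 and 245.1 CPM per mouse, that of 11 supporting cell genes between 895.8 and 1403 CPM, and that of 16 spiral ganglion neuron genes between 6706 and 7801 CPM. Genes of other tissues varied between mice, with sums of 7781 to 24831 CPM for red cells, 429.7 to 1393 CPM for neutrophils, 18.2 to 2344 CPM for skeletal muscle and 37.8 to 980.2 CPM for fat. All 8 red cell genes tested had a log2 change above 0 in Opa1+/- mice, with a median of 0.56, and all 9 skeletal muscle genes had one below 0, with a median of -0.67. In both lists 0 genes passed the adjusted threshold. The pituitary genes reached a sum of 1020 CPM in WT mouse 4 against 3.54 to 82.7 CPM in the other mice.

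The library of WT mouse 6 stood apart from the others in receptor genes. Ret was 12.1 CPM in this mouse against 56.1 to 85.1 CPM in the other 7 mice, whose median was 5.42 times higher. Ngfr was 65.8 CPM against 119.1 to 184.6 CPM, a median 2.05 times higher. Ntrk2, Ntrk3, Gdnf and Ntf3 of the same library lay inside the range of the other mice. The comparison of genotypes was therefore also made without WT mouse 6. Because whole tissue was used, fewer cells of a type and less RNA per cell cannot be told apart.

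No difference between WT and Opa1+/- cochleae passed the test in any of the 8 genes. With edgeR's quasi-likelihood test adjusted over 19366 genes, 0 of 8 passed an adjusted p of 0.05, where 0.0258% of all genes tested passed. At an unadjusted p under 0.05, 0 of 8 were higher and 0 of 8 were lower, against a background of 3.38% of genes higher and 3.32% lower. For none of the 8 were the CPM values of the genotypes free of overlap, against 1.98% of genes with every Opa1+/- mouse higher and 2.31% with every Opa1+/- mouse lower. DESeq2 and limma voom also called 0 of 8, adjusted or not, where they called 0.132% and 0.0516% of all genes after adjustment and 5.76% and 10.5% before it. The 8 log2 changes ran from -0.23 for Gdnf to 0.30 for Ntf3, with a median of 0.023 and 5 above 0. The median over all genes tested was -0.0031, and 9506 of 19366 were above 0. Without WT mouse 6 the counts stayed at 0 of 8 in edgeR, and the log2 changes of Ntf3, Gdnf, Ntrk2 and Ntrk3 were 0.27, -0.21, -0.078 and -0.071. Those of the other genes are given with each gene.

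**Figure D1:**
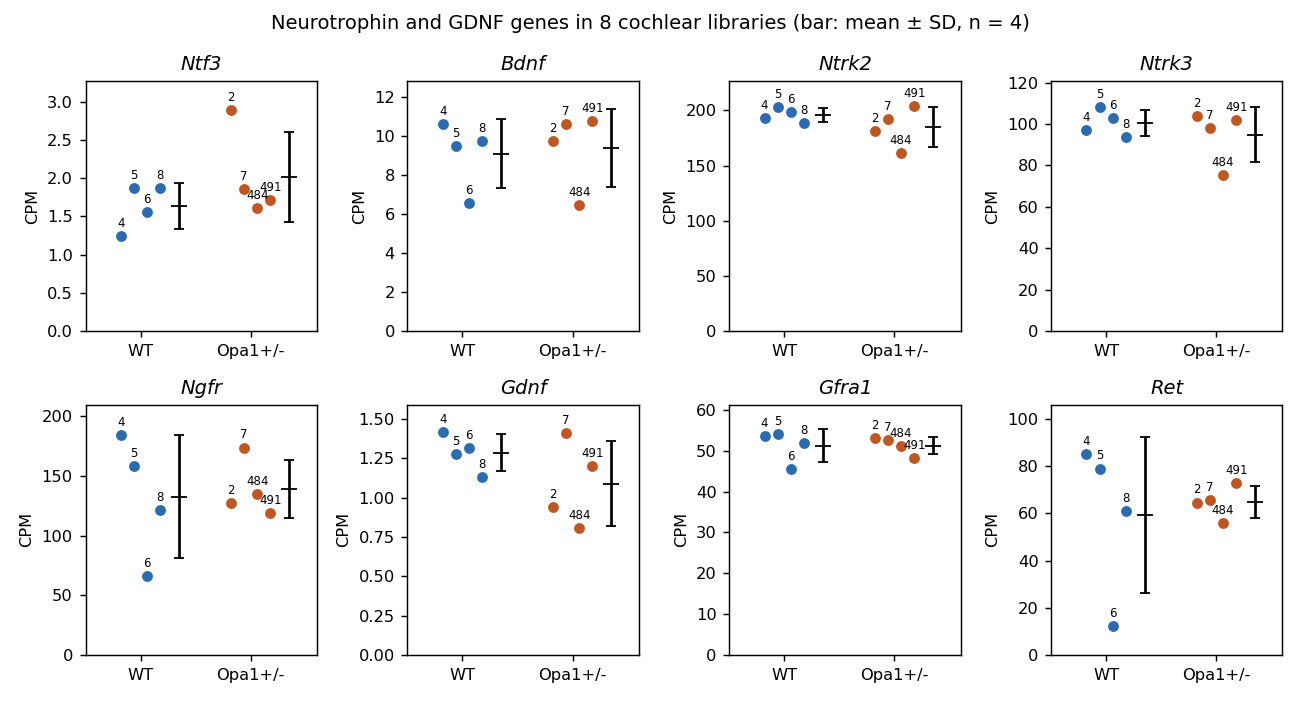
CPM (y axis, from 0, a separate scale for each gene) of the 8 genes in every WT (blue) and Opa1+/- (orange) mouse, each point labelled with its animal number and bars showing mean ± SD over 4 mice. The genotypes overlap for every gene, and WT mouse 6 lies lowest for Ngfr (65.8 CPM), Gfra1 (45.5 CPM) and Ret (12.1 CPM).

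Among the ligands, Ntf3 had the largest difference of the 8 genes in size, and it rested on 1 mouse. WT mice 4, 5, 6 and 8 had 1.25, 1.87, 1.55 and 1.87 CPM, and Opa1+/- mice Het_2, Het_7, Het_484 and Het_491 had 2.89, 1.86, 1.61 and 1.71 CPM. Only Het_2 lay above the WT range. The log2 change was 0.30 ± 0.240 (SE), with a 95% interval from -0.24 to 0.84 and an adjusted p of 0.8288 in edgeR. Without Het_2 the change was 0.077, and without WT mouse 4 it was 0.19. Without both Het_484 and Het_491 it was 0.53. Ntf3 was read from 22 to 49 counts per mouse, so that counting alone gives a coefficient of variation of 17.4%, against 18.3% seen among WT and 29.3% among Opa1+/- mice.

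Bdnf, the ligand of TrkB, was 10.6, 9.49, 6.57 and 9.74 CPM in WT mice 4, 5, 6 and 8. It was 9.74, 10.6, 6.45 and 10.8 CPM in Opa1+/- mice Het_2, Het_7, Het_484 and Het_491. In each genotype 3 mice lay between 9.49 and 10.8 CPM and 1 lay near 6.5. The log2 change was 0.045 ± 0.193, with a 95% interval from -0.39 to 0.48 and an adjusted p of 0.972 in edgeR. Its sign turned without WT mouse 6 (-0.080), without Het_7 (-0.021) or without Het_491 (-0.025). Bdnf is read from several promoters, and its counts sum all of its transcripts.

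Gdnf, the ligand of the GFRα1 and RET complex, was the rarest of the 8 genes, with 13 to 28 counts per mouse. WT mice 4, 5, 6 and 8 had 1.42, 1.28, 1.31 and 1.13 CPM. Opa1+/- mice Het_2, Het_7, Het_484 and Het_491 had 0.944, 1.41, 0.806 and 1.20 CPM. Het_2 and Het_484 lay below every WT mouse, and the others lay within the WT range. The log2 change was -0.23 ± 0.222, with a 95% interval from -0.72 to 0.27 and an adjusted p of 0.866 in edgeR. Counting alone gives Gdnf a coefficient of variation of 21.6% in a single library, against 9.17% seen among WT and 24.7% among Opa1+/- mice. Gdnf had a log2 change of -0.38 without Het_7 and -0.11 without Het_484.

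Ntrk2, which encodes TrkB, had the smallest coefficient of variation of the 8 genes among WT mice, 3.28%, against 9.82% among Opa1+/- mice. WT mice 4, 5, 6 and 8 had 193.0, 203.4, 198.5 and 188.7 CPM, and Opa1+/- mice Het_2, Het_7, Het_484 and Het_491 had 181.0, 192.6, 161.4 and 203.9 CPM. Het_2 and Het_484 lay below the WT range, Het_491 lay just above it and Het_7 within it. The ratio of Opa1+/- to WT was 0.943, with a 95% interval from 0.836 to 1.06 and an adjusted p of 0.850 in edgeR. With library sizes from total counts alone, every Opa1+/- mouse was below every WT mouse, as for 2.81% of all genes tested in that direction under that scaling, and the unadjusted p was 0.152 in edgeR. Its log2 change of -0.085 became -0.025 without Het_484 and -0.14 without Het_491. Its counts do not separate full-length TrkB from the truncated forms that lack the kinase domain.

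Ntrk3, which encodes TrkC, was 97.1, 108.1, 103.0 and 93.6 CPM in WT mice 4, 5, 6 and 8. It was 104.1, 97.9, 75.3 and 102.0 CPM in Opa1+/- mice Het_2, Het_7, Het_484 and Het_491. Het_484 was the only one outside the WT range. The ratio of Opa1+/- to WT was 0.944, with a 95% interval from 0.804 to 1.11 and an adjusted p of 0.899 in edgeR. Without Het_484 the log2 change went from -0.083 to 0.012. This mouse, which also had the smallest library at 15978051 counts, had the lowest level of Bdnf, Gdnf, Ntrk2 and Ntrk3 among the 8. The share of all genes lowest in Het_484 is not given here, so this is not read as a trait of these genes.

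Ngfr, which encodes p75, varied most among WT mice after Ret. WT mice 4, 5, 6 and 8 had 184.6, 158.3, 65.8 and 121.0 CPM, and Opa1+/- mice Het_2, Het_7, Het_484 and Het_491 had 127.2, 173.7, 134.9 and 119.1 CPM. WT mice held both the highest and the lowest value. The log2 change was 0.067 ± 0.269, with a 95% interval from -0.54 to 0.67 and an adjusted p of 0.969 in edgeR. Without WT mouse 6 it was -0.16 ± 0.163, with an interval from -0.52 to 0.21 and an adjusted p of 0.804, and without Het_7 it was -0.060. Markers of Schwann cells, which can carry p75, summed to between 3777 and 5067 CPM in WT and between 4464 and 5962 CPM in Opa1+/- mice, and all 15 had a log2 change above 0 with a median of 0.17 and 0 past the adjusted threshold. WT mouse 6 had the highest Schwann sum of the WT mice together with the lowest Ngfr. Markers of satellite and non-myelinating glia, which carry p75 too, summed to 1036 CPM in this mouse, within the 882.7 to 1146 CPM of the other mice, but 3 of the 7 genes summed were lowest in it. These were Cdh19 (20.8 CPM against 32.2 to 60.7), Fabp7 (52.5 CPM against 76.8 to 114.4) and Scn7a (117.6 CPM against 167.0 to 243.5), while Gfap was highest in it (359.5 CPM against 135.4 to 302.9). The part of these glial genes in the level of Ngfr was not tested.

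Gfra1, the GDNF-binding subunit, had the smallest difference of the 8 genes between genotypes. WT mice 4, 5, 6 and 8 had 53.6, 54.1, 45.5 and 51.9 CPM. Opa1+/- mice Het_2, Het_7, Het_484 and Het_491 had 53.0, 52.5, 51.2 and 48.4 CPM. The log2 change was 0.00048 ± 0.0673, with a 95% interval of the ratio of Opa1+/- to WT from 0.901 to 1.11 and an adjusted p of 0.999 in edgeR. With a change so near 0 its sign turned without WT mouse 6 (-0.052), Het_2 (-0.016) or Het_7 (-0.011).

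Ret, the receptor tyrosine kinase of the GDNF family, gave the widest interval. WT mice 4, 5, 6 and 8 had 85.1, 79.0, 12.1 and 61.0 CPM, and Opa1+/- mice Het_2, Het_7, Het_484 and Het_491 had 64.6, 65.7, 56.1 and 72.8 CPM. The Opa1+/- mice lay between the low value of WT mouse 6 and the high values of WT mice 4 and 5. The log2 change was 0.13 ± 0.443, with a 95% interval from -0.87 to 1.12 and an adjusted p of 0.966 in edgeR. Without WT mouse 6 the sign turned to -0.21 ± 0.122, with an interval from -0.49 to 0.064, an unadjusted p of 0.117 and an adjusted p of 0.675. The coefficient of variation was 55.8% among the 4 WT mice and 10.6% among the 4 Opa1+/- mice.

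Other receptors of these families showed which genes were low together in WT mouse 6. Gfra3, the artemin co-receptor, was read from 6 counts (0.358 CPM) against 8.46 to 10.9 CPM. Gfra2, the neurturin co-receptor, was 5.85 CPM against 14.2 to 21.3 CPM. Of the 20 ligand and receptor genes described here from both families, 5 were lowest in WT mouse 6 (Ngfr, Gfra1, Ret, Gfra2 and Gfra3), where 18.3% of all genes tested were lowest in it.

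GFRα3 and RET are known from pain- and temperature-sensing neurons of other sensory ganglia, so a list of 13 genes of such neurons was examined after these values had been seen. All 12 of its genes present in the tables were lowest in WT mouse 6. Their summed level was 96.2 CPM in this mouse against 496.0 to 755.4 CPM in the other 7. By genotype the sum ranged from 96.2 to 755.4 CPM in WT and from 496.0 to 657.2 CPM in Opa1+/- mice. None of the 12 was at 0 in WT mouse 6. Scn10a, a sodium channel of such neurons, was 1.02 CPM against 89.9 to 143.7 CPM. Calca, which encodes the peptide CGRP, was 2.21 CPM against 52.1 to 83.0 CPM. Mrgprd, a receptor of skin nociceptors, was read from 3 counts (0.179 CPM), and Trpv1, the capsaicin receptor, was 0.478 CPM. P2rx3, Tac1 and Isl2 were less reduced, at 21.3 CPM against 43.2 to 80.0 CPM, 19.5 CPM against 32.8 to 41.1 CPM and 15.2 CPM against 21.8 to 34.0 CPM.

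The spiral ganglion neuron genes of WT mouse 6 summed to 7409 CPM, inside the range of 6706 to 7801 CPM in the other mice, and Nefl, Nefm, Nefh and Snap25 made up most of the sum. However, 5 of the 16 were lowest in it and outside the range of the others. Prph was 76.1 CPM against 221.1 to 342.1 CPM and Scn9a 36.0 CPM against 79.5 to 138.4 CPM, and the other 7 mice had a median 1.38 to 1.73 times higher for Stmn2, Tubb3 and Uchl1. Its skeletal muscle genes summed to 2344 CPM against 18.2 to 1191 CPM in the other mice. Its hair cell genes (245.1 CPM against 171.4 to 232.5 CPM) and supporting cell genes (1403 CPM against 895.8 to 1328 CPM) were also above those of the other mice. Its fat genes summed to 37.8 CPM against 110.1 to 980.2 CPM. The part of any of these in the levels of Ret and Ngfr was not tested.

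**Figure D2:**
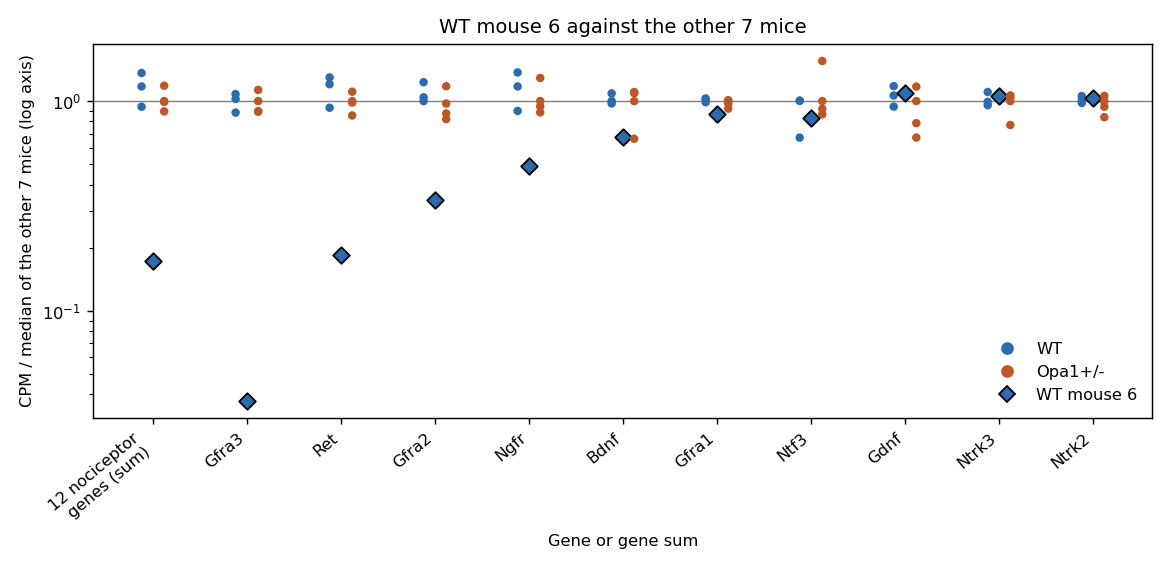
Level of each gene, or of the sum of 12 genes of pain- and temperature-sensing neurons, divided by the median of the 7 mice other than WT mouse 6 (log axis); points are mice, WT in blue and Opa1+/- in orange, with WT mouse 6 as an outlined diamond and a grey line at 1. WT mouse 6 lies far below the others for Gfra3 (0.358 CPM), Ret (12.1 CPM), Gfra2 (5.85 CPM), Ngfr (65.8 CPM) and the sum, and among them for Ntrk2, Ntrk3 and Gdnf.

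The reference sequence upstream of Ngfr and Ntrk2, the most abundant receptors of the p75 and Trk kinds, is shown. Both are RefSeq windows on GRCm38.p6, 200 bases long, that end 50 bases before the start annotated by RefSeq, which for Ngfr is not the GENCODE start given below. They lie at chr11:95587749-95587948 on the minus strand for Ngfr and chr13:58806319-58806518 on the plus strand for Ntrk2. Capitals mark the GC box GGGCGG, searched on both strands together with the TATA box TATAAA and the SOX motif ACAAAG.
Ngfr: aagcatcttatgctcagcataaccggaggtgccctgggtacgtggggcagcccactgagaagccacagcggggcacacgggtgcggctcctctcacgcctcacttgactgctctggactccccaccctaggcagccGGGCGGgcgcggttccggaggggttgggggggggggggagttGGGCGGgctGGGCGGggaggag
Ntrk2: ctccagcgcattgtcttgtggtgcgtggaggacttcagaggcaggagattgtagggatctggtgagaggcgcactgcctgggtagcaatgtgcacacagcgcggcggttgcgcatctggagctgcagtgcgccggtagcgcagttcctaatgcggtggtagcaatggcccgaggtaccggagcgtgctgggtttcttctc
The Ngfr window held 3 GC boxes and a GC content of 70%, and the Ntrk2 window held none of the 3 motifs and a GC content of 61%. The window of Gfra1, at chr19:58455449-58455648 on the minus strand, held no GC box and a GC content of 52%. It lies inside the GENCODE span of Gfra1 given below, so it is not upstream of the GENCODE start. Of 32851 RefSeq windows of the same length, 24.6% held the GC box, 9.14% the TATA box and 13.6% the SOX motif. These matches describe the letters of the windows only.

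The genes lie apart in the genome, as placed by the GENCODE vM21 annotation of GRCm38. Ntf3 (chr6:126101412-126166910) and Ret (chr6:118151745-118197718) are on chromosome 6, both on the minus strand. Ngfr (chr11:95568818-95587735) and Gdnf (chr15:7810846-7837575) have 1 annotated transcript each, Bdnf (chr2:109674700-109727007) has 11 and Ret has 2. Ntrk2 (chr13:58806569-59133970) and Ntrk3 (chr7:78175959-78738012) each share their span with 4 other annotated genes, and Bdnf and Gfra1 (chr19:58235604-58455909) each with 1 antisense gene. Whether reads were assigned by strand is not given in the sources used here, so reads of those genes and of the members cannot be told apart.

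Levels between genes were compared as CPM per kb of annotated exon. Ngfr was the highest at 39.3 ± 10.9 CPM per kb (SD over 8 mice), and by this length no mouse had less Ngfr than any mouse had Ntrk2. Ntrk2, Gfra1 and Ret followed at 9.87 ± 0.723, 9.36 ± 0.538 and 9.18 ± 3.30 CPM per kb, with ranges that overlapped. Ntrk3 stood at 3.24 ± 0.335 CPM per kb, above Bdnf at 1.49 ± 0.282 in every mouse. Ret was above Ntrk3 in 7 of 8 mice, the exception being WT mouse 6. Ntf3 came next at 1.07 ± 0.280 CPM per kb, overlapping Bdnf, and Gdnf was lowest at 0.323 ± 0.0595. Of the 7 neighbours in this order, 3 pairs had ranges over the 8 mice that did not overlap, and 4 had when the longest transcript was used as the length. By that length Ret came before Gfra1, and the ranges of Ngfr and Ntrk2 overlapped, with Ngfr at 19.1 and Ntrk2 at 22.7 per kb in WT mouse 6.

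**Figure D3:**
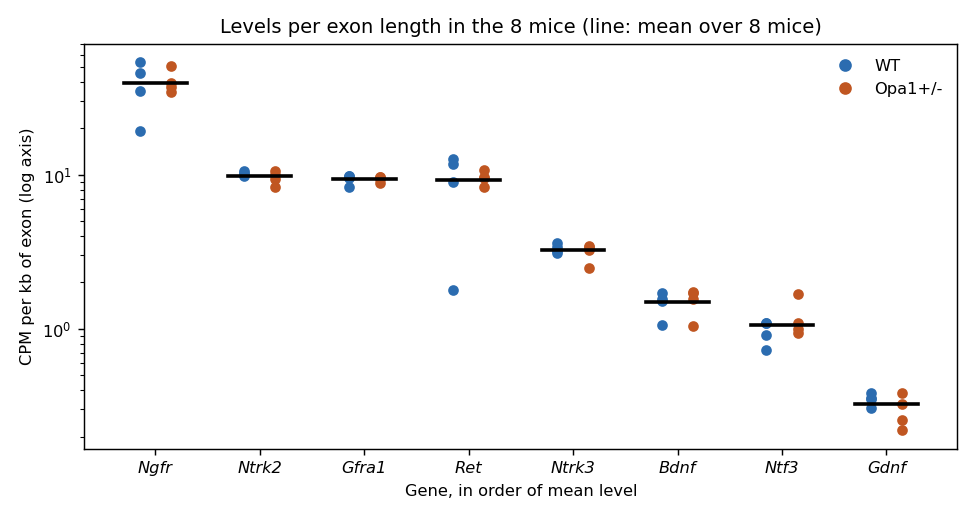
CPM per kb of annotated exon (log y axis) of the 8 genes in order of their mean, with points for WT (blue) and Opa1+/- (orange) mice and a black line at the mean over 8 mice. Levels fall from 39.3 for Ngfr to 0.323 for Gdnf, and the lone low point of Ret, at 1.79, is WT mouse 6.

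Ratios within a mouse set the same library apart. Gfra1 over Ret, the co-receptor against its kinase, was 4.63 in WT mouse 6 and between 0.778 and 1.13 in the others, per kb. Ngfr over the sum of Ntrk2 and Ntrk3 was 1.39 in WT mouse 6 and between 2.48 and 4.05 in the others. Ntrk2 over Ntrk3 was steady, between 2.72 and 3.35 in all 8 mice. Ntf3 over Bdnf ranged from 0.427 in WT mouse 4 to 1.08 in Het_2. The medians of WT and Opa1+/- mice were 0.705 and 0.771 for Ntf3 over Bdnf, 3.06 and 3.10 for Ntrk2 over Ntrk3, and 0.948 and 1.001 for Gfra1 over Ret.

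Across mice, some of the 8 genes varied together in log2 CPM. Ntrk2 and Ntrk3 had a Pearson r of 0.861 over 8 mice, and 0.854 without WT mouse 6. Ntrk2 and Gdnf had 0.838, and 0.828 without that mouse. Ngfr and Ret had 0.900 over 8 mice but 0.561 without WT mouse 6, and Gfra1 and Ret went from 0.827 to 0.292, so these values depended on that library. Bdnf and Ntrk2 went the other way, from 0.508 to 0.858. These are descriptions over mice that differ in genotype, depth and tissue make-up, and the part of those differences was not tested.

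The genes most alike to each member over the 8 mice, among those with a mean normalized count over 100, are given with their r and were picked as the highest of about 13569 values. Bdnf was followed most closely by Chrnb2 (r = 0.996, and 0.994 without WT mouse 6), a subunit of the neuronal nicotinic receptor, and Rbfox1 (0.983), a splicing factor. Ntrk3 was followed by Gabrb2 (0.962), a GABA receptor subunit, and Tmem69 (0.949). Ntrk2 was followed by Vkorc1l1 (0.975) and Vdac3-ps1 (0.960), a pseudogene with a near-identical parent. Ngfr was followed by Camk2a (0.990) and Prkcd (0.986), both protein kinases, and Ret by Dgkh (0.996) and Gm765 (0.996), which fell to 0.915 and 0.934 without WT mouse 6. Gfra1 was followed by Stx1a (0.988) and Abca8b (0.980), Gdnf by Dnajc5 (0.978) and Fgf1 (0.974), and Ntf3 by Hspbp1 (0.944) and Sema3g (0.940).

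The 8 genes were set against summed markers of spiral ganglion neurons, Schwann cells and mesenchyme, 24 relations in all over 8 mice. With Benjamini-Hochberg adjustment 0 of 24 passed, and the lowest adjusted values were 0.400 for Pearson's r and 0.110 for Spearman's rho. Bdnf against mesenchyme and fibrocyte genes had r = -0.783 (exact permutation p = 0.0167) and rho = -0.905 (exact permutation p = 0.00456). Without the 2 mice farthest from the median sum r was -0.759, and without WT mouse 6 it was -0.765. With 4 mice per genotype no value within a genotype was computed.

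No other ligand or receptor examined in these families passed the test. Ntf5, a further TrkB ligand, was 0.647 ± 0.118 CPM (SD, n = 4) in WT and 0.695 ± 0.213 CPM in Opa1+/- cochleae. Bdnf, Ntf3 and Ntf5 all had a log2 change above 0, with a median of 0.099, and 0 of 3 passed an unadjusted p of 0.05. That median was 0.23 without Het_7, 0.19 without WT mouse 6, 0.19 without Het_484 and 0.065 without WT mouse 5, and Bdnf was below 0 without WT mouse 6 (-0.080), Het_7 (-0.021) or Het_491 (-0.025). Among 7 neurotrophin receptors 0 passed and the median was -0.059, which became 0.012 without Het_484. Sort1, the sortilin partner of p75 for precursor forms, was 118.5 ± 12.5 and 113.8 ± 3.90 CPM. The related Sorcs1 was 23.7 ± 1.79 and 26.0 ± 1.36 CPM, with an unadjusted p of 0.102 in edgeR, and Sorcs2 and Sorcs3 had log2 changes of 0.12 and -0.16.

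In the GDNF family, Nrtn and Artn, which encode neurturin and artemin, were 2.09 ± 0.496 and 1.13 ± 0.247 CPM in WT and 2.36 ± 0.290 and 1.09 ± 0.197 CPM in Opa1+/- mice. Pspn, which encodes persephin, had 0 counts in all 8 mice, which allows up to 3 counts per library or between 0.148 and 0.190 CPM. Gfral, the receptor of GDF15, had 1 count in WT mouse 8, 1 in Het_2 and 0 in the rest. All 7 GDNF receptor genes tested had a log2 change above 0, as had 9506 of all 19366 genes tested. Their median was 0.087, and 0 of the 7 passed an unadjusted p of 0.05. Without WT mouse 6 that median was -0.023. Ncam1 and Sdc3, alternative GDNF receptors, were abundant, at 105.6 ± 3.38 and 112.6 ± 7.90 CPM in WT against 108.4 ± 7.10 and 118.1 ± 5.49 CPM in Opa1+/- mice. Gfra4, the persephin co-receptor, was 8.94 ± 1.03 and 9.52 ± 1.40 CPM.

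**Figure D4:**
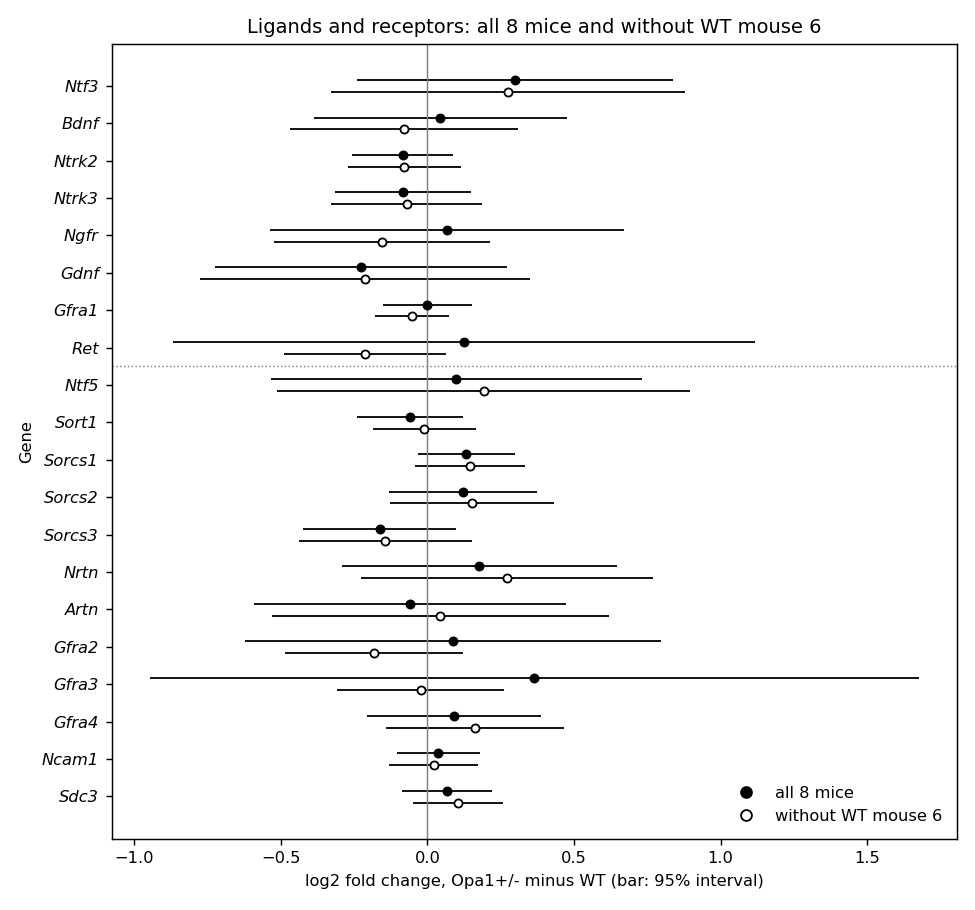
Log2 change from WT to Opa1+/- (x axis, above 0 higher in Opa1+/-) with 95% intervals for 20 ligand and receptor genes, the 8 described in full above the dotted line, from all 8 mice (filled) and without WT mouse 6 (open). Every interval spans 0, and those of Ret, Ngfr, Gfra2 and Gfra3 narrow without WT mouse 6, that of Ret from -0.87 to 1.12 down to -0.49 to 0.064.

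Further along the pathway, 103 genes of ligands, receptors, adaptors, p75 signalling, precursor processing, response genes and other trophic factors were examined, of which 102 were in the tables and 98 were tested. Of these, 0 passed the adjusted threshold. At an unadjusted p under 0.05, 2 were higher and 3 lower in Opa1+/- mice, and the median log2 change was -0.017. These are shares of the order of the 3.38% and 3.32% over all genes.

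The response genes held 3 of these 5. Egr2, an early response transcription factor that is also the master regulator of myelination in Schwann cells, was 20.1 to 23.1 CPM in WT and 23.5 to 30.7 CPM in Opa1+/- mice, without overlap. Its log2 change was 0.34 ± 0.0873 with an unadjusted p of 0.00334 and an adjusted p of 0.726 in edgeR. Spred2, an inhibitor of Ras and MAP kinase signalling, was 36.84 to 41.2 CPM in WT and 33.7 to 36.77 CPM in Opa1+/- mice, without overlap, with a log2 change of -0.17 ± 0.0571 and an unadjusted p of 0.0152. Egr2 is also 1 of the 15 Schwann cell markers given above, all of which had a log2 change above 0. Their part in its level was not tested. The related Spred1 had a log2 change of -0.18 with an unadjusted p of 0.0350 in edgeR and overlapping ranges.

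Among the adaptors of Trk and RET, Frs2, the docking protein, had a log2 change of -0.15 with an unadjusted p of 0.0435 in edgeR, and Cbl, a ubiquitin ligase of receptor kinases, had -0.10 with an unadjusted p of 0.102. Among other trophic factors, Cntf, a factor of Schwann cells, was 7.38 to 13.9 CPM in WT and 12.6 to 16.5 CPM in Opa1+/- mice. Its log2 change was 0.54 ± 0.186 with an unadjusted p of 0.0167 in edgeR. With single mice left out that change ran from 0.43 (without WT mouse 8) to 0.75 (without WT mouse 4). Lif, a related cytokine, had a log2 change of 0.54 with an unadjusted p of 0.0731 in edgeR. In p75 signalling, Tnfrsf19, a relative of p75, had a log2 change of -0.28 with an unadjusted p of 0.103 in edgeR. It was 71.1 CPM in WT mouse 6 and 38.5 to 51.0 CPM in the other mice, and without WT mouse 6 the change was -0.097. Traf6, a signalling adaptor, had a log2 change of -0.099 with an unadjusted p of 0.190 in edgeR, and -0.065 without WT mouse 8. In the processing of precursors, all 9 genes tested had log2 changes below 0, with a median of -0.11 and 0 past an unadjusted p of 0.05. That median was -0.034 without Het_491, -0.061 without WT mouse 6 and -0.16 without WT mouse 4. The lowest p-values there were 0.150 for Pcsk5 (-0.15) and 0.248 for Cpe (-0.095), by edgeR. Pcsk5 had a log2 change of -0.087 without Het_484, and Cpe had -0.036 without WT mouse 6. No gene of these lists passed the adjusted threshold.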

How the data were processed

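Whole-cochlea RNA of 4 WT and 4 Opa1+/- mice was prepared as CORALL libraries and read as pairs of 80 nucleotides. The authors trimmed adapters, used molecular identifiers against amplification bias, mapped reads to GRCm38/mm10 with STAR after FastQC, used the CORALL analysis pipeline, and deposited 1 table of raw counts per mouse, whole numbers per gene symbol. The program that counted reads within it and its use of strand are not given in the sources used here. The labels name TRI Reagent or the RNeasy microkit for extraction and do not say which mouse had which.

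Entries with a number in place of a symbol (15, between 0.112% and 0.124% of counts) were left out, leaving 47628 named entries. Genes with a mean count over 10 after DESeq2 size factors (19366) were tested with edgeR 4.0.16's quasi-likelihood test on TMM-scaled libraries, with Benjamini-Hochberg adjustment and a threshold of 0.05. SE is the absolute log2 change over the square root of F. DESeq2 1.42.0, limma 3.58.1 voom with a quality weight for each mouse, other scalings and filters, and each mouse left out were the alternatives. R 4.3.3 and Python 3.11.15 were used, and the tests were checked on simulated data. P-values measure the spread between mice.

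The 8 genes and the pathway and marker lists were chosen with earlier results of these data known. The lists of pain- and temperature-sensing neuron, pituitary and fat genes, leaving WT mouse 6 out of correlations, and the fits of Opa1 and of the named pathway genes without single mice were added after values were seen. Genes named are the 8, the listed ligands and receptors of both families, the 2 genes of lowest p in each other list with any past the threshold, the 2 most alike to each of the 8, and Opa1. Spred1 was named to complete a count, and genes of the added and marker lists are named as checks. Bex3 was not matched by symbol and was not used here. Results for 2 listed genes are not reported here.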

Additional observations from a re-analysis of the deposited data

Results flagged for a closer look

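In 44 groups of 4 mice (22 ligand and receptor genes in each genotype), 2 values lay apart from the rest of their group by Dixon's criterion, both of them for Gfral. Gfral was 0.0492 CPM in WT mouse 8 and 0.0590 CPM in Het_2, an Opa1+/- mouse, 1 count each, against 0 in the others of each group. With 1 count against 0 in every other mouse, Dixon's ratio is at its maximum of 1 whatever the value, so the share of about 1 in 20 groups that chance gives does not apply to either.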

How the results depend on the processing

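No pairing or block by litter was used, because the sample titles give only genotype and animal number. Which WT and Opa1+/- mice came from the same litter is not known. Under all alternatives run, 0 of the 8 genes passed the adjusted threshold, also at 0.1, and 0 had an unadjusted p under 0.05. The number of genes free of overlap was 1 (Ntrk2, lower) with total counts alone and 0 otherwise. The log2 change of Gfra1 turned sign with DESeq2 size factors (-0.0016), total counts alone (-0.023) and limma voom (-0.011), that of Bdnf with voom (-0.064), and that of Ntrk3 without both Opa1+/- mice with 3-digit numbers (0.0077). With each mouse left out, log2 changes ran from -0.080 to 0.19 for Bdnf, -0.13 to 0.012 for Ntrk3, -0.16 to 0.27 for Ngfr, -0.052 to 0.028 for Gfra1 and -0.21 to 0.35 for Ret, and, with no change of sign, from 0.077 to 0.39 for Ntf3, -0.14 to -0.025 for Ntrk2 and -0.38 to -0.11 for Gdnf. Without single mice, pathway genes with an unadjusted p under 0.05 numbered 2 to 9 against 5. They numbered 2 without WT mouse 8, 3 without WT mouse 5, Het_2 or Het_7, 8 without WT mouse 6 and 9 without WT mouse 4. Among all genes tested, those past the adjusted threshold numbered 5, against 12 with no filter, 25 with DESeq2, 10 with voom, 11 with robust estimation, 0 without both mice with 3-digit numbers and 0 to 10 with each mouse left out. The cause was not tested. The median ratios of Ntrk2 over Ntrk3 and of Ngfr over both were 3.09 and 3.06 by exon length, and 4.46 and 1.51 by the longest transcript. Depth limits Ntf3 and Gdnf most, at 13 to 49 counts per mouse.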
